A study of Mus musculus with 18 samples.

Results

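The subject here is the 9 genes that encode Polycomb repressive complex 2 (PRC2) and the enzymes that remove its histone mark. They are *Ezh2* and *Ezh1*, the alternative catalytic subunits, *Suz12* and *Eed*, the core scaffold subunits, *Rbbp4* and *Rbbp7*, the histone-binding subunits, *Jarid2*, a substoichiometric subunit, and *Kdm6a* and *Kdm6b*, the H3K27 demethylases. The members were chosen by gene symbol from the 19153 genes of the deposited tables. The rule used no values of theirs, but earlier results of these data were known. All 9 were found and passed the filter on low counts (at least 1 group with over 5 expected counts in each of its 3 libraries). They were read out in RNA-seq libraries of immortalized mouse myoblasts, the precursor cells of muscle fibers, of which 18 libraries in 6 groups were available.

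All groups were derived from p53-knockout myoblasts, so that this deletion is shared by the controls. Wildtype (WT) cells had received the empty Cas9 vector, and LAP2α knockout (KO) cells were a sorted pool, not a single clone, in which CRISPR-Cas9 targeted an exon specific to LAP2α, a lamin-binding nucleoplasmic isoform encoded by *Tmpo*. Each genotype was harvested while proliferating below confluence in 20% serum (Prol), near confluence in 20% serum (D0), and on day 2 after the change to 5% serum, which induces differentiation (D2). There were 3 replicates per group, and no label ties them to separate derivations of the cell lines, so that p-values measure the spread between these libraries, which may be technical. The libraries held 26437823 to 41619016 expected counts. All values below are levels in CPM (counts scaled to a common library total with TMM factors) or differences of their log2.

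The cell identity was checked with marker genes. Of 6 myoblast markers, *Pax7* was not in the tables and the other 5 were detected in every group. *Myf5* ranged from 20.5 to 27.4 CPM in the WT Prol libraries, where *Myod1* ranged from 0.736 to 4.61 and *Myog* from 0.388 to 1.3. At D2, *Myog* reached 261 to 532 CPM in WT and 148 to 232 CPM in KO. *Tmpo*, counted over all its isoforms and therefore no direct measure of LAP2α, was at 300 ± 21.8 CPM in WT Prol and 246 ± 16.6 in KO Prol (SD, n = 3). It was at 266 ± 32.2 and 225 ± 34 CPM in D0, and at 138 ± 27.6 and 120 ± 33 CPM in D2, with overlap of the genotypes in both.

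PRC2 methylates H3K27 at the promoters of silent developmental genes, and PRC1 acts with it on the same chromatin. EZH2 is the more active methyltransferase and is typical of dividing cells, whereas EZH1 is the form found in many non-dividing tissues. In muscle precursors, PRC2 is known to occupy muscle genes that are switched on when the cells leave the cell cycle, and KDM6A (UTX) and KDM6B (JMJD3) are the enzymes known to remove the mark. EZH2 and EED are textbook targets of the E2F factors, which drive genes of DNA replication.

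To put these genes in sequence context, the 300-base promoter windows of the members called lower or higher at D2 are shown, from 250 bases before to 50 bases after the RefSeq start site (GRCm38.p6), each read 5′ to 3′ on the strand of the gene. Capitals mark matches on either strand to an E2F form (TTCCCGC, or the form TTGGCGC, or the form TTCGCGC) or to a CHR form (TTTGAA, or its variant TTCGAA), the latter being the element read by the MuvB complexes of cell-cycle genes. The windows are chr6:47594981-47595280 on the minus strand for *Ezh2*, chr11:79992856-79993155 on the plus strand for *Suz12*, chr7:89980927-89981226 on the minus strand for *Eed*, chrX:162760122-162760421 on the plus strand for *Rbbp7*, and chr11:101226414-101226713 on the minus strand for *Ezh1*.
Ezh2: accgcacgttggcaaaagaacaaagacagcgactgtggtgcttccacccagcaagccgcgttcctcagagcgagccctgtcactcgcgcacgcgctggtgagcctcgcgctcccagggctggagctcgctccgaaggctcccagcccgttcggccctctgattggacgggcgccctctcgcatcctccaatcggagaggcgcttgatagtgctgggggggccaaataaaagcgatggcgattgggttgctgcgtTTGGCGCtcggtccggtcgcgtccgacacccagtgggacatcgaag
Suz12: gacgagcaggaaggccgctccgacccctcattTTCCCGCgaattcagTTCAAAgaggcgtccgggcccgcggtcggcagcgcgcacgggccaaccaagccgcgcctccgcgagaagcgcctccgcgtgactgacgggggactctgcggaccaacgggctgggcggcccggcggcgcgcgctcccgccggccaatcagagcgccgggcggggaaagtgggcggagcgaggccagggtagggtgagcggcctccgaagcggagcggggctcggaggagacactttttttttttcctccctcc
Eed: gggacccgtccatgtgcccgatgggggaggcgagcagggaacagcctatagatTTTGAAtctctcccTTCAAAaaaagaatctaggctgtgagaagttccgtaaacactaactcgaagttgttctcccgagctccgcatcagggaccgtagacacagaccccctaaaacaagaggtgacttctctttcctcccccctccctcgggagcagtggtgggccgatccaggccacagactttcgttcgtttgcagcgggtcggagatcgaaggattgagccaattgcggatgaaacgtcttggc
Rbbp7: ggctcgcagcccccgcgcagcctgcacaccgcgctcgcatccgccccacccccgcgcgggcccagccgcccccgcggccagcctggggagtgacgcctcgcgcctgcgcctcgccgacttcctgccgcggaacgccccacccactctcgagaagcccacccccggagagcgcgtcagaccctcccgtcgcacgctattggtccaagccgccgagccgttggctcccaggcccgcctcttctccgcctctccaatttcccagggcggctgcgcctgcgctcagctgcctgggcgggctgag
Ezh1: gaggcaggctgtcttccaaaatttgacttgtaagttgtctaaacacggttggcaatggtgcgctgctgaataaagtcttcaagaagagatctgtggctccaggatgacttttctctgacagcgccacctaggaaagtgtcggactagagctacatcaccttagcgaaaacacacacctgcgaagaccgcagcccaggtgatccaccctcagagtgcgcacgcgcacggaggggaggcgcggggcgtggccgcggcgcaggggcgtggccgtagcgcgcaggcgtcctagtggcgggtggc

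With positions counted from the start site, *Ezh2* had an E2F match at 5, inside the transcript, and *Suz12* had an E2F match at -218 and a CHR match at -203. *Eed* had CHR matches at -197 and -183 and no E2F match. *Rbbp7* and *Ezh1* had neither. The window of *Rbbp4* held overlapping E2F matches at -15 and -12, and those of *Jarid2* and *Kdm6a* held none of either kind. Among all 32851 windows of this length, 8.07% held an E2F form, 19.2% a CHR form and 0.977% both kinds. The pentamer CCAAT, searched on both strands, was present 3 times in the *Ezh2* window and absent from that of *Ezh1*, and 37.4% of all windows held it. The GC content was 54.7% in the *Eed* window and 75.7% in the *Rbbp7* window, against a median of 52.7% over all windows. These matches describe the letters only and say nothing of binding. *Kdm6b* had no entry.

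Between proliferation and day 2, the members moved in both directions. In WT cells *Ezh2*, *Suz12*, *Eed* and *Rbbp7* fell and *Ezh1* rose, making 5 of 9 members called at an adjusted p under 0.05 (limma, Benjamini-Hochberg over 17672 genes), where 30.7% of all genes tested were called (16.6% higher, 14.1% lower). In KO cells the same 5 members were called in the same directions, where 32.3% of all genes were called (17.1% higher, 15.2% lower). *Rbbp4*, *Jarid2*, *Kdm6a* and *Kdm6b* did not pass the test in either genotype. The D2 libraries of 7 members in WT and of 9 in KO did not overlap their Prol libraries, as was the case for 43.5% and 47.7% of all genes. These counts depended on single libraries, since 3 members were called in WT without Prol replicate 1, Prol replicate 3 or D2 replicate 3, and 3 in KO without Prol replicate 1 or D2 replicate 2.

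**Figure D1:**
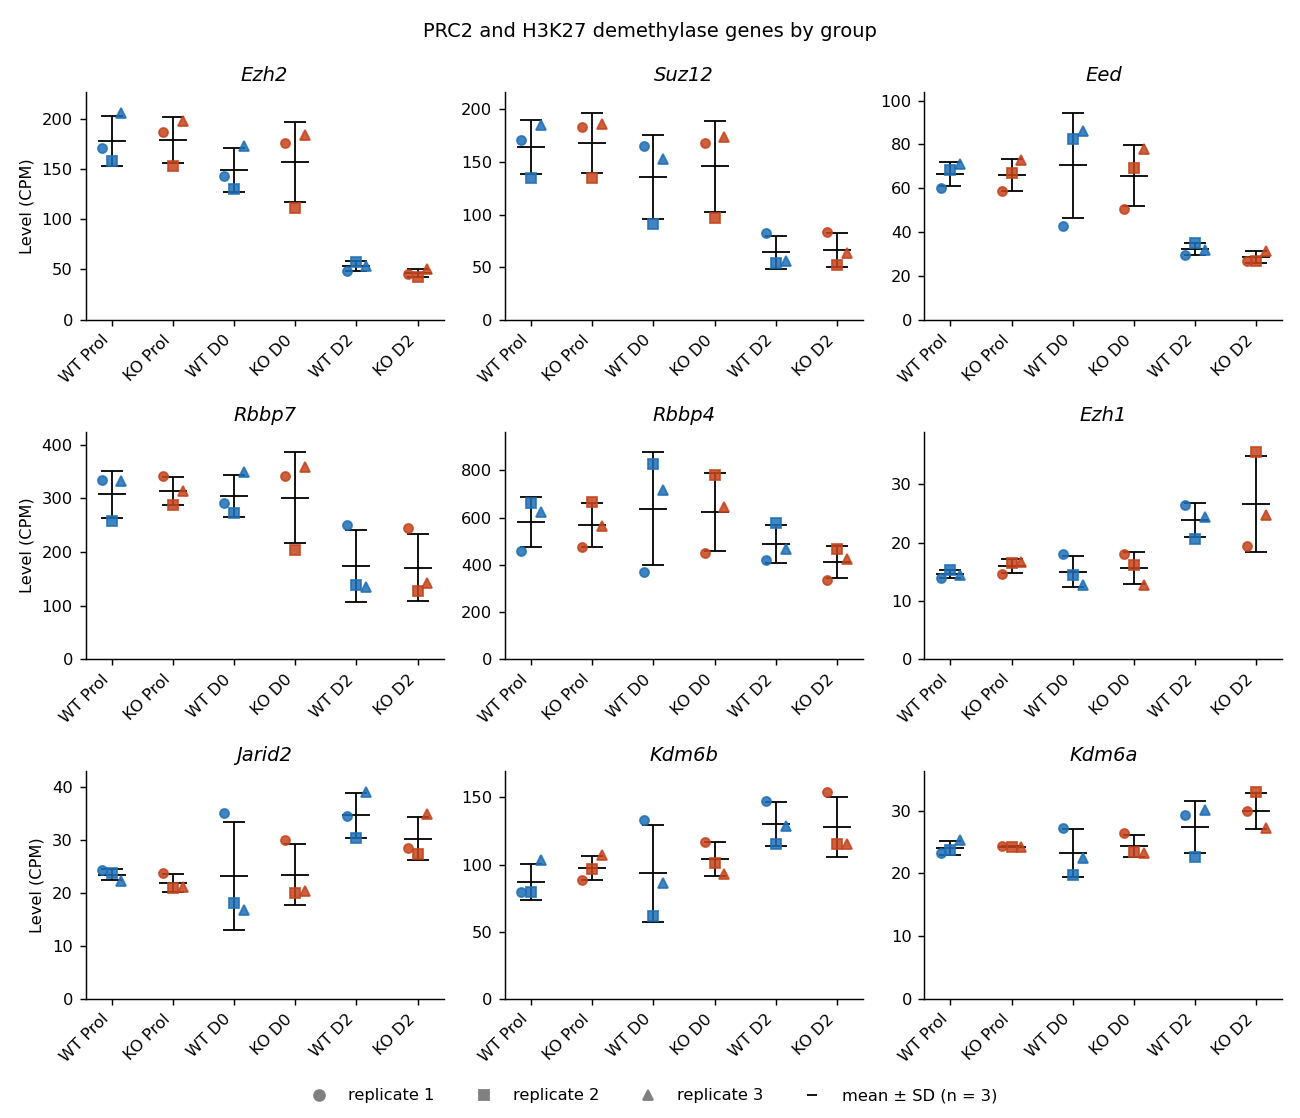
Level of each gene in CPM (vertical axes, starting at 0) in the 6 groups, with WT libraries in blue and KO libraries in red, symbols for the replicate number, and black bars for the mean ± SD (n = 3). *Ezh2* was at 42.6 to 57.7 CPM in the 6 D2 libraries, below the 111 to 206 CPM of the other libraries, and replicate 1 (circles) of *Rbbp4* was the lowest in every group.

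The catalytic subunits moved in opposite directions. *Ezh2* (chr6:47530139-47595341, GRCm38) was at 171, 158 and 206 CPM in the WT Prol libraries, and at 48.5, 57.7 and 53.7 CPM in the WT D2 libraries. The KO libraries were at 187, 153 and 198 CPM in Prol and at 45.2, 42.6 and 50.6 CPM in D2. The D2 libraries were all below the Prol libraries in each genotype, with no overlap. The log2 fold change was -1.74 in WT (standard error 0.20, adjusted p = 9.27e-06) and -1.95 in KO (0.20, 3.38e-06), which is 3.33 times and 3.88 times lower. *Ezh2* was the member with the largest change in both genotypes, and it stayed called with every library left out in turn and in every other fit tried.

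*Ezh1* (chr11:101191115-101226463) was at 14, 15.4 and 14.4 CPM in WT Prol and at 26.5, 20.7 and 24.5 CPM in WT D2. In KO myoblasts *Ezh1* was at 14.6, 16.6 and 16.7 CPM in Prol and at 19.4, 35.5 and 24.8 CPM in D2. In each genotype the lowest D2 library exceeded the highest Prol library, and the KO D2 libraries spread most, with replicate 2 at the top. The level was 1.63-fold higher at D2 in WT (log2 fold change 0.70, standard error 0.22, adjusted p = 0.0215) and 1.62-fold higher in KO (0.69, 0.22, 0.0222). This rise passed the test with a small margin. In WT the adjusted p was 0.0618 to 0.064 without Prol replicate 1 or 3 or D2 replicate 1 or 3, and in KO it was 0.0789 without Prol replicate 1 and 0.132 without D2 replicate 2, where the log2 fold change was 0.46.

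The ratio of both catalytic subunits within a library combines these changes and is given as a description, in CPM and not corrected for gene length. The geometric mean of *Ezh2* over *Ezh1* was 12.1 in WT Prol (range 10.3 to 14.3) and 11.2 in KO Prol (9.25 to 12.8). At D0 it was 9.91 (7.97 to 13.5) and 9.89 (6.86 to 14.5). At D2 it was 2.24 (1.83 to 2.79) in WT and 1.79 (1.2 to 2.33) in KO. *Ezh2* stayed above *Ezh1* in CPM in each of the 18 libraries, by the least in KO D2 replicate 2.

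**Figure D2:**
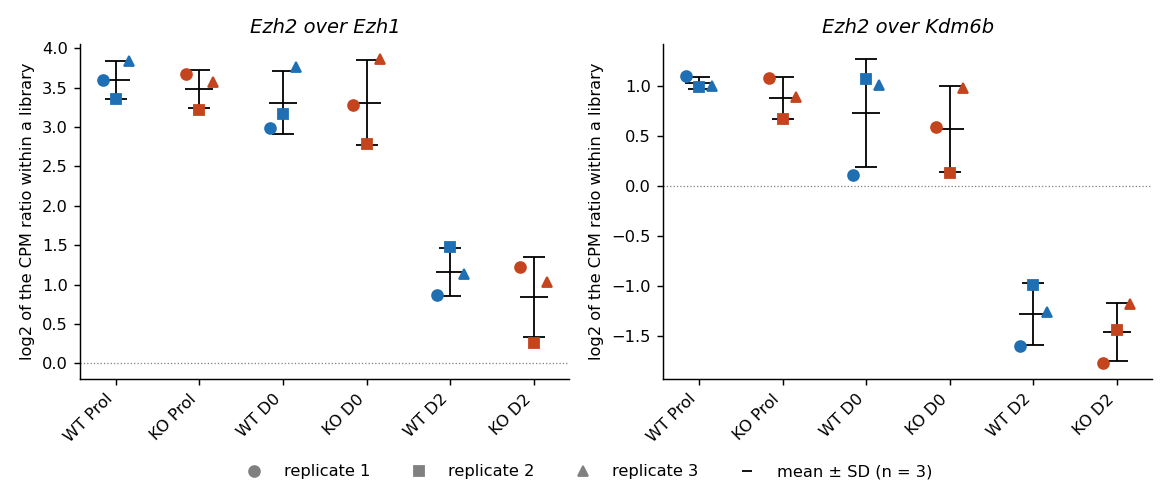
The log2 ratio of *Ezh2* to *Ezh1* CPM (left) and of *Ezh2* to *Kdm6b* CPM (right) within each library, by group, with the mean ± SD (n = 3) in black and a dotted line at equal CPM. The *Ezh2* to *Ezh1* ratio stayed above the line in all libraries, whereas the *Ezh2* to *Kdm6b* ratio was above it in Prol and D0 and below it in the 6 D2 libraries.

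The scaffold subunits fell as well. *Suz12* (chr11:79993106-80034123), which holds the core together, was at 171, 135 and 185 CPM in WT Prol and at 82, 54.1 and 56.2 CPM in WT D2. For KO the values were 183, 135 and 186 CPM in Prol and 83.7, 52 and 63.2 CPM in D2. In each group replicate 2 was the lowest library, and the D2 and Prol libraries did not overlap. *Suz12* was 2.58 times lower in WT (log2 fold change -1.37, standard error 0.29, adjusted p = 0.00176) and 2.55 times lower in KO (-1.35, 0.29, 0.0018).

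*Eed* (chr7:89954654-89980983), the subunit that binds the methyl mark and stimulates the enzyme, was at 60.1, 68.2 and 70.9 CPM in WT Prol and at 29.4, 35.2 and 31.9 CPM in WT D2. KO libraries had *Eed* at 58.6, 66.8 and 73 CPM in Prol and at 26.9, 26.6 and 31.5 CPM in D2. Again no D2 library reached a Prol library. *Eed* was 2.06 times lower in WT (log2 fold change -1.05, standard error 0.24, adjusted p = 0.00304) and 2.33 times lower in KO (-1.22, 0.24, 0.000903). The annotated transcript *Gm45120* overlaps *Eed* on the same strand, so that reads in the overlap may have been divided between them.

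*Rbbp7* and *Rbbp4* encode closely related WD40 proteins that also serve in chromatin assembly and deacetylase complexes. *Rbbp7* (chrX:162760402-162779092) was at 334, 258 and 333 CPM in WT Prol and at 251, 138 and 134 CPM in WT D2. In KO it was at 341, 287 and 314 CPM in Prol and at 244, 128 and 142 CPM in D2. Replicate 1 was the highest D2 library in both genotypes, at 251 and 244 CPM, the former close to the lowest WT Prol library. *Rbbp7* was 1.83 times lower in WT (log2 fold change -0.88, standard error 0.29, adjusted p = 0.0315) and 1.91 times lower in KO (-0.93, 0.29, 0.022). The call was lost in WT without Prol replicate 1 or 3 or D2 replicate 2 or 3 (adjusted p = 0.0923 to 0.13), and in KO without Prol replicate 1 or 3 or D2 replicate 2 or 3 (0.0595 to 0.103).

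*Rbbp4* (chr4:129307100-129335370) was at 460, 662 and 623 CPM in WT Prol and at 422, 577 and 468 CPM in WT D2. In KO it was at 477, 666 and 565 CPM in Prol and at 336, 469 and 424 CPM in D2. The WT groups overlapped, and the KO D2 libraries were below the KO Prol libraries. The log2 fold change was -0.24 in WT (95% interval -0.88 to 0.39, adjusted p = 0.59) and -0.48 in KO (-1.11 to 0.16, adjusted p = 0.252). A fit blocked on the replicate number called the KO value (adjusted p = 0.0145), along with 48.6% of all genes.

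*Jarid2* (chr13:44729474-44921643), which aids recruitment of PRC2, had D2 libraries at 34.5, 30.4 and 39 CPM against 24.2, 23.8 and 22.2 CPM in Prol for WT. In KO these values were 28.5, 27.3 and 34.9 CPM against 23.8, 20.8 and 21 CPM. Although no library overlapped, *Jarid2* missed the threshold with log2 fold changes of 0.56 in WT (95% interval 0.04 to 1.08, adjusted p = 0.0965) and 0.46 in KO (-0.06 to 0.98, adjusted p = 0.17).

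The demethylase genes had positive log2 fold changes that did not pass the test. *Kdm6b* (chr11:69398508-69413675) was at 79.6, 79.5 and 103 CPM in WT Prol and at 147, 115 and 129 CPM in WT D2. The KO values of *Kdm6b* were 88.4, 96.6 and 107 CPM in Prol and 154, 115 and 115 CPM in D2. The D2 libraries were above the Prol libraries in both genotypes, and the log2 fold change was 0.58 in WT (95% interval 0.08 to 1.07, adjusted p = 0.0731) and 0.39 in KO (-0.11 to 0.88, adjusted p = 0.231). *Kdm6a* (chrX:18162575-18279936) was at 23.2, 23.8 and 25.3 CPM in WT Prol and at 29.3, 22.6 and 30.2 CPM in WT D2, with overlap. In KO it was at 24.4, 24.2 and 24.3 CPM in Prol and at 29.9, 33 and 27.3 CPM in D2, without overlap. Its log2 fold change was 0.17 (-0.17 to 0.51, adjusted p = 0.472) in WT and 0.30 (-0.04 to 0.64, adjusted p = 0.177) in KO. The upper limits correspond to 1.43-fold in WT and 1.56-fold in KO.

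Within a library, *Ezh2* over *Kdm6b* was 2.04 in WT Prol (1.99 to 2.14) and 0.411 in WT D2 (0.33 to 0.504), and 1.84 (1.59 to 2.11) and 0.363 (0.294 to 0.441) in KO. The order of these transcripts was therefore inverted at D2 in each of the 6 libraries. *Kdm6b* over *Kdm6a* was 3.6 in WT Prol and 4.77 in WT D2, and 3.98 and 4.24 in KO.

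**Figure D3:**
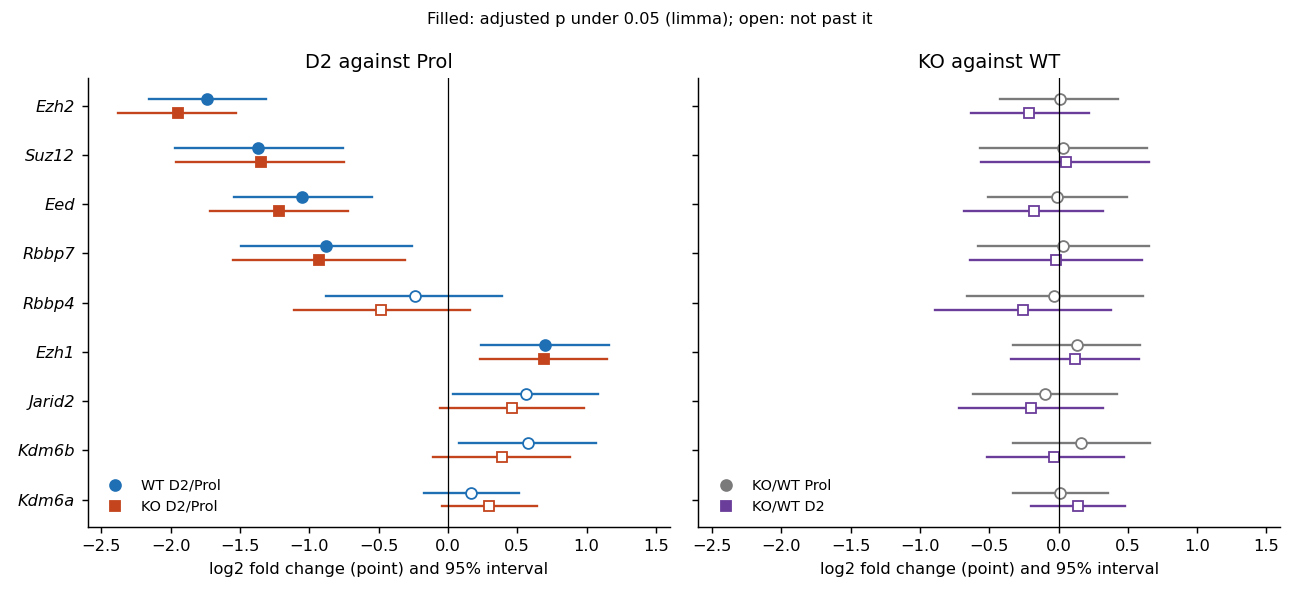
The log2 fold change of each gene with its 95% interval (horizontal axes) for D2 against Prol in WT and KO (left) and for KO against WT in Prol and D2 (right), where filled symbols mark an adjusted p under 0.05. On the left, 5 genes per genotype have filled symbols, and on the right all symbols are open and all intervals include 0.

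Levels were also divided by the kilobases of annotated exon, joined over all transcripts of a gene. This is not the length of the transcripts expressed, so the order of genes is approximate. In WT Prol *Rbbp4* was above *Rbbp7* in CPM (582 against 308), but its exons span 8.74 kb against 2.91 kb. Per kb, *Rbbp7* led in WT Prol at 106 ± 15 CPM, followed by *Rbbp4* at 66.6 ± 12.2, *Suz12* at 33.2 ± 5.22, *Ezh2* at 26.7 ± 3.7, *Eed* at 17.3 ± 1.46 and *Kdm6b* at 12.6 ± 1.93 (SD, n = 3). *Suz12* and *Ezh2* lay within the spread of each other. *Kdm6a* at 2.87 ± 0.131, *Jarid2* at 2.41 ± 0.105 and *Ezh1* at 1.96 ± 0.0937 were lowest. At D2 in WT, *Kdm6b* came next after *Rbbp7* and *Rbbp4*, at 18.7 ± 2.33 CPM per kb, above *Suz12* at 13 ± 3.13, *Eed* at 8.41 ± 0.758 and *Ezh2* at 7.98 ± 0.696, the latter pair within its spread. The leading pair, *Rbbp7* at 59.8 ± 22.8 and *Rbbp4* at 55.9 ± 9.08, could no longer be ordered, nor could *Jarid2* at 3.56 ± 0.442, *Kdm6a* at 3.27 ± 0.497 and *Ezh1* at 3.21 ± 0.398. In each of these states the first 6 genes of KO stood in the order of WT.

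No member was called between Prol and D0, and the groups overlapped for each. At D0 *Ezh2* was at 143, 130 and 173 CPM in WT and at 176, 111 and 184 CPM in KO, overlapping Prol in both. *Ezh1* was at 18, 14.4 and 12.8 CPM in WT D0 and at 18.1, 16.1 and 12.7 CPM in KO D0. *Suz12* was at 165, 90.6 and 153 CPM in WT D0 and at 168, 96.3 and 174 CPM in KO D0, with replicate 2 well below the others in both. For *Eed* the D0 values were 42.8, 82.5 and 86 CPM in WT and 50.3, 69.4 and 77.9 CPM in KO, where replicate 1 was the lowest. *Rbbp7* was at 292, 273 and 349 CPM in WT and at 341, 204 and 359 CPM in KO, and *Kdm6a* at 27.3, 19.7 and 22.5 CPM in WT and at 26.4, 23.4 and 23.2 CPM in KO. Each of these groups overlapped the Prol group of its genotype. None of the 9 members was called in D0 against Prol in WT or KO by limma with adjustment, none had an unadjusted p under 0.05, and none was called with voom weights and a random replicate block. The largest difference was -0.30 on the log2 scale for *Suz12* in WT, and the 95% intervals of the members extended from -0.91 to 0.70 (WT) and from -0.84 to 0.74 (KO). Between libraries of the same number, *Ezh2* and *Suz12* were lower at D0 in 3 of 3 pairs in both genotypes, a count not made for all genes. With the replicate block their adjusted p was 0.75 and 0.732 in WT and 0.98 for each in KO (limma). Few genes were called at all in these comparisons, 0.00566% in WT and 0% in KO. Some D0 groups spread widely, as for *Rbbp4* in WT (371, 827 and 717 CPM), *Jarid2* in WT (35, 18 and 16.7 CPM) and *Kdm6b* in WT (133, 61.8 and 86 CPM), where replicate 1 stood apart from the others.

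Against D0, which shares the D2 libraries with the comparison above, 5 of 9 members were again called in each genotype, where 26% of all genes were called in WT and 28.3% in KO. *Ezh2* was 2.78 times lower in WT D2 (adjusted p = 5.78e-05) and 3.33 times lower in KO D2 (1.28e-05). *Suz12* was 2.09 times (adjusted p = 0.0116) and 2.17 times lower (0.00786), and *Eed* 2.09 times (0.00324) and 2.29 times lower (0.00128). *Rbbp7* was 1.82 times (adjusted p = 0.0389) and 1.78 times lower (0.0432), and *Ezh1* was 1.6-fold (0.0311) and 1.66-fold higher (0.0184). The KO libraries of *Rbbp7* overlapped, with D2 replicate 1 at 244 CPM and D0 replicate 2 at 204 CPM. The D2 and D0 libraries of 5 members did not overlap in each genotype, as for 33.2% (WT) and 36.7% (KO) of all genes. *Rbbp4* had a log2 fold change of -0.58 in KO (adjusted p = 0.162, and 0.00449 with the block, which called 46% of all genes). In WT the count was 3 without D0 replicate 2 or D2 replicate 3 and 2 without D0 replicate 3, and in KO it was 3 without D0 replicate 3 or D2 replicate 2. *Suz12* lost its call in WT without D0 replicate 3 (adjusted p = 0.0569). *Rbbp7* lost its call without any of the 3 D0 libraries or D2 replicate 2 or 3 in WT (0.0563 to 0.148) and without D0 replicate 1 or 3 or D2 replicate 2 or 3 in KO (0.126 to 0.174). *Ezh1* lost its call without D0 replicate 2 or 3 or D2 replicate 1 or 3 in WT (0.078 to 0.134) and without D0 replicate 3 or D2 replicate 2 in KO (0.101 and 0.109). Without WT D0 replicate 1, *Jarid2* and *Kdm6b* were higher at D2 in WT with log2 fold changes of 0.99 (adjusted p = 0.00169) and 0.83 (0.00762), against 0.65 (0.0609) and 0.54 (0.104) with it.

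To ask whether loss of LAP2α changed these genes, KO was compared with WT within each state. None of the 9 members was called in Prol, D0 or D2 by limma, none had an unadjusted p under 0.05, none was called with voom weights and a random replicate block, and the KO and WT libraries of every member overlapped. Of all genes tested, 0.00566% were called in Prol and 0% in D0 and D2, and 4.41%, 3.02% and 6.17% had libraries that did not overlap. The adjusted test was strict, since the paper reported genes that differed between the genotypes under its own criteria. With an unadjusted p under 0.05 (limma), a change over 1.5-fold and at least 10 CPM, 0.113%, 0.209% and 0.464% of all genes passed. Among the members, the largest log2 fold change was 0.16 for *Kdm6b* in Prol, 0.22 for *Kdm6b* in D0 and -0.26 for *Rbbp4* in D2. At D2, *Ezh2*, *Eed*, *Rbbp4* and *Jarid2* were lower in KO in 3 of 3 pairs of libraries with the same number. Their adjusted p with the replicate block was 0.954 to 0.984 (limma). How many of all genes were lower in 3 of 3 pairs was not counted, so that this pattern has no background beside it.

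The intervals below set how large a difference the main fit, which had no replicate block, could have missed. The block, for which the numbers were taken as pairing between the genotypes, gave smaller standard errors. For KO/WT D2 these were 0.14 against 0.20 for *Ezh2*, 0.20 against 0.22 for *Ezh1* and 0.15 against 0.29 for *Suz12*. For *Ezh2*, KO over WT was 1.01 in Prol (95% interval 0.749 to 1.35), 1.04 in D0 (0.772 to 1.39) and 0.865 in D2 (0.644 to 1.16). For *Ezh1* it was 1.09 (0.794 to 1.5), 1.04 (0.755 to 1.43) and 1.08 (0.788 to 1.49). For *Kdm6b* it was 1.12 (0.793 to 1.58), 1.16 (0.823 to 1.64) and 0.98 (0.695 to 1.38), and for *Kdm6a* it was 1.01 (0.796 to 1.28), 1.06 (0.836 to 1.34) and 1.1 (0.87 to 1.4). Averaged over the 3 states, KO over WT was 0.967 for *Ezh2* (0.815 to 1.15), 1.04 for *Suz12* (0.818 to 1.33), 0.945 for *Eed* (0.774 to 1.15), 0.99 for *Rbbp7* (0.773 to 1.27) and 0.939 for *Rbbp4* (0.729 to 1.21). It was 1.07 for *Ezh1* (0.891 to 1.29), 0.949 for *Jarid2* (0.771 to 1.17), 1.06 for *Kdm6a* (0.921 to 1.21) and 1.08 for *Kdm6b* (0.889 to 1.32). None of these averages passed the test, where 0.00566% of all genes did.

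The change from Prol to D2 itself was also compared between the genotypes. The difference of the log2 fold changes, KO minus WT, ranged from -0.23 for *Rbbp4* to 0.13 for *Kdm6a*, with an adjusted p of 1 (limma) for each member, and 0% of all genes passed this test. For *Ezh2* it was -0.22 (95% interval -0.82 to 0.38) and for *Ezh1* -0.01 (-0.66 to 0.64).

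Markers of the cell cycle and of another cell type moved with the D2 state. The summed level of 12 proliferation markers was 3070 to 3810 CPM in the 6 Prol libraries, 2330 to 3600 CPM in D0 and 480 to 770 CPM in D2, and all 12 were called lower at D2 in WT and in KO. *Mcm5*, a subunit of the replicative helicase, fell by 2.83 on the log2 scale in WT, *Ccna2*, cyclin A2, by 2.81, and *Top2a*, topoisomerase II alpha, by 2.78. The summed level of 5 fibroblast markers was 17.2 to 46.9 CPM in Prol, 13.9 to 78.8 CPM in D0 and 218 to 423 CPM in D2, and all 5 were called higher at D2 in both genotypes. In the D2 libraries *Pdgfra* was at 66.9 to 241 CPM, *Dpt* at 53.4 to 129 CPM, *Dcn* at 30.1 to 63.8 CPM, *Lum* at 2.48 to 8.26 CPM and *Thy1* at 0.196 to 1.99 CPM. Their log2 fold changes in WT were 2.00, 8.53, 8.08, 6.19 and 2.5. In the WT Prol libraries *Lum* was at 0.0169 to 0.0669 CPM, and the lowest values of *Dpt*, *Dcn* and *Thy1* were 0.0402, 0.0844 and 0.0988 CPM. A count of 3 equals 0.0651 to 0.119 CPM. The fold changes of these genes, *Pdgfra* aside, therefore depend on the 0.5 counts added by the authors. The adipocyte, endothelial, leukocyte and Schwann cell lists summed to 5.92 CPM or less in every library, and *Adipoq*, *Cdh5*, *Ptprc*, *Adgre1* and *Sox10* were not in the tables. The part of these markers in the changes of the PRC2 genes was not tested. In bulk libraries, fewer cells that express a gene and less of its RNA per cell cannot be told apart.

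The pathway around the members was described with lists of related genes. Of 6 tested accessory subunits and inhibitors of PRC2, 1 was called higher and 3 lower at D2 in both genotypes, where 16.6% of all genes were higher and 14.1% lower in WT, and 17.1% and 15.2% in KO. With the block, which called 48.6% of all genes, 1 was higher and 4 lower in KO. *Phf1* rose by 1.12 on the log2 scale in WT (adjusted p = 0.0056) and by 1.17 in KO (0.00406), from 18.6 ± 3.09 to 40.4 ± 5.9 CPM in WT (SD, n = 3). Its paralog *Phf19* had log2 fold changes of -1.78 in WT (adjusted p = 0.000858) and -1.61 in KO (0.00182), and the other Polycomb-like gene, *Mtf2*, of -0.61 (0.0253) and -0.86 (0.00298). *Epop*, which links PRC2 to elongin, had log2 fold changes of -1.29 in WT (adjusted p = 0.000733) and -1.92 in KO (2.04e-05). The median over the list was -0.71 in WT and -0.85 in KO, against -0.01 and 0.02 over all genes.

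Of 21 PRC1 genes tested, 0 rose and 2 fell at D2 in WT, whereas 0 rose and 4 fell in KO, where 14.1% (WT) and 15.2% (KO) of all genes fell. *Cbx2*, which reads the H3K27 mark, had log2 fold changes of -1.10 in WT (adjusted p = 8.79e-05) and -1.38 in KO (1.13e-05), and *Pcgf6*, a subunit of a variant PRC1, of -1.22 (0.000132) and -0.98 (0.000841). The other calls in KO were *Phc2* and *Kdm2b*, named after their values were seen. In the blocked fit 1 gene was higher and 7 were lower in KO, where 48.6% of all genes were called. The median was -0.20 in WT and -0.24 in KO. None of the 4 genes of the deubiquitinase that opposes PRC1 was called in either genotype, and their log2 fold changes ranged from -0.29 to -0.02 (WT) and from -0.33 to 0.48 (KO).

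KDM6A works within the KMT2C and KMT2D methyltransferase complexes. Of 9 partner genes, 0 were called higher and 3 lower at D2 in both genotypes, where 14.1% of all genes were lower in WT and 15.2% in KO. In KO with the block, 0 were higher and 6 lower, against 48.6% of all genes called. *Wdr5* had a log2 fold change of -1.35 in WT (adjusted p = 0.000661), *Paxip1* of -1.21 (0.000168) and *Ash2l* of -0.63 (0.0354). *Wdr5* and *Ash2l* are shared by all KMT2 complexes. The CAF-1, NuRD, Sin3, MuvB and Hat1 complexes each hold RBBP4 or RBBP7, not always both. Of 21 genes of these complexes 7 were called lower in WT and 8 in KO, and 0 higher, beside the same shares of all genes. With the block 1 was higher and 12 lower in KO, again in the fit that called 48.6% of all genes. The largest falls in WT were those of *Chaf1a* (log2 fold change -2.54, adjusted p = 8.29e-06) and *Chaf1b* (-2.21, 6.32e-06), subunits of the replication-coupled chromatin assembly factor, and of *Hat1* (-2.01, 2.8e-06), a histone acetyltransferase. None of the genes in these lists was called in a comparison of the genotypes, where at most 0.00566% of all genes were.

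**Figure D4:**
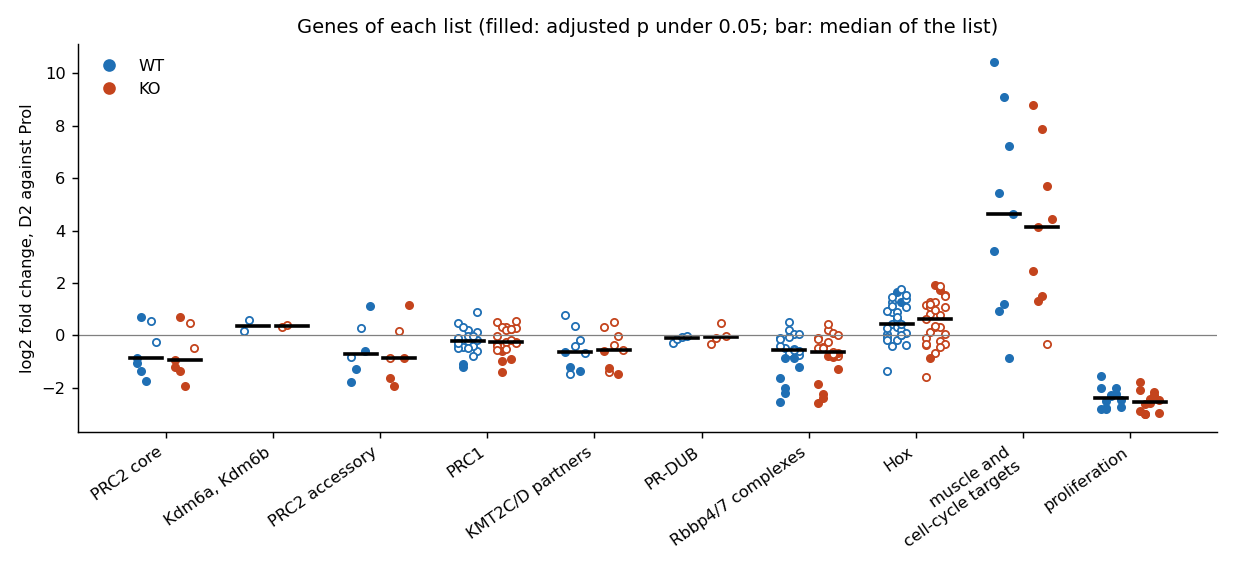
The log2 fold change of D2 against Prol (vertical axis) for every gene tested of each list, in WT (blue) and KO (red), where filled points have an adjusted p under 0.05 and black bars mark the median of a list. All 12 proliferation markers lie below 0 and are filled in both genotypes, whereas most PRC1 and Hox genes are open.

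Genes listed as PRC2 targets were followed as a readout of transcript levels only, since no histone mark was measured here. Of 9 muscle and cell-cycle genes tested, 8 rose and 1 fell at D2 in WT, while 8 rose and 0 fell in KO, beside 16.6% and 17.1% of all genes that rose. Muscle genes of this list, such as *Myog*, also a marker above, define the D2 state itself. Their rise was therefore set by the choice of the list, and the count says nothing of PRC2. *Mymk*, which encodes the fusogen myomaker, reached 226 ± 115 CPM in WT D2 and 111 ± 21.9 in KO D2, and *Myog* reached 393 ± 136 and 198 ± 44.4 CPM (SD, n = 3). *Ckm*, muscle creatine kinase, reached 13.1 ± 1.41 and 6.22 ± 1.99 CPM. Their log2 fold changes from Prol were 10.45, 9.09 and 7.22 in WT and 8.81, 7.88 and 5.69 in KO. Those of *Mymk* and *Ckm* start from values near the detection limit and depend on the 0.5 counts added by the authors. The differences between the genotypes were not called (adjusted p = 1 for each). *Pax3*, a factor of muscle precursors, had a log2 fold change of -0.85 in WT (adjusted p = 0.0283) and of -0.32 in KO (0.414).

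Of 39 Hox genes, 29 were tested. In WT, 2 rose and 0 fell at D2, whereas 3 rose and 1 fell in KO. Of all genes, 16.6% rose in WT and 17.1% in KO. With the block, 9 were higher and 2 lower in KO, in a fit that called 48.6% of all genes. *Hoxb3* rose from 5.04 ± 1.98 to 15.2 ± 2.68 CPM in WT (log2 fold change 1.64, adjusted p = 0.0251) and from 6.37 ± 2.88 to 22.9 ± 6.98 CPM in KO (1.92, 0.00984). *Hoxb4* had log2 fold changes of 1.28 (adjusted p = 0.0393) and 1.74 (0.0071). The other KO calls were *Hoxb5*, higher, and *Hoxa4*, lower, named after their values were seen. The median over the Hox genes was 0.45 in WT and 0.62 in KO.

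The genes whose levels followed the members most closely over the 18 libraries are given as a description. Many genes differed between the D2 libraries and those of Prol and D0, which sets much of any correlation. Libraries with the same replicate number also tended to deviate together. Among 10759 genes with at least 10 CPM in at least 1 library, those most like *Ezh2* were *Myef2* (Pearson r = 0.995), *Mcm7* (0.994), *4933404O12Rik* (0.994), *Kif20a* (0.993) and *Slbp* (0.993). Within the 12 Prol and D0 libraries r was 0.94 for *Myef2* and 0.95 for *Mcm7*, and within the 6 D2 libraries it was 0.88 and 0.72. The closest to *Ezh1* were *Smpd2* (0.941), *Mknk1* (0.941), *Apeh* (0.94), *Kif13b* (0.939) and *Dcaf8* (0.937), and to *Kdm6b* *Ift172* (0.901), *Afap1* (0.9), *Mbd5* (0.899), *Ahdc1* (0.898) and *Fam120c* (0.898).

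The members also deviated from their group means in a way that went with the replicate number. *Rbbp4* was below its group mean in replicate 1 of all 6 groups, by 0.36 on the log2 scale on average, and above it in replicate 2 of all 6 groups. *Eed* was likewise below the mean in replicate 1 of 6 groups. *Suz12* was above the mean in replicate 1 of 6 groups (mean deviation 0.26) and below it in replicate 2 of 6 groups (-0.37), and *Rbbp7* was above it in replicate 1 of 5 groups (0.26) and below it in replicate 2 of all 6 (-0.28). *Ezh2* was above the mean in replicate 3 of all 6 groups (0.17). After subtraction of the group means, r over the 18 libraries was 0.84 between *Suz12* and *Rbbp7* and 0.85 between *Eed* and *Rbbp4*, but -0.72 between *Suz12* and *Rbbp4*. It was -0.85 between *Eed* and *Jarid2*, -0.82 between *Rbbp4* and *Jarid2*, and 0.73 between *Kdm6a* and *Kdm6b*. Deviations over genes at large also went with the replicate number (median r 0.319 over 45 pairs of libraries), so that this was not particular to the members. The labels do not say what the replicate numbers share.

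**Figure D5:**
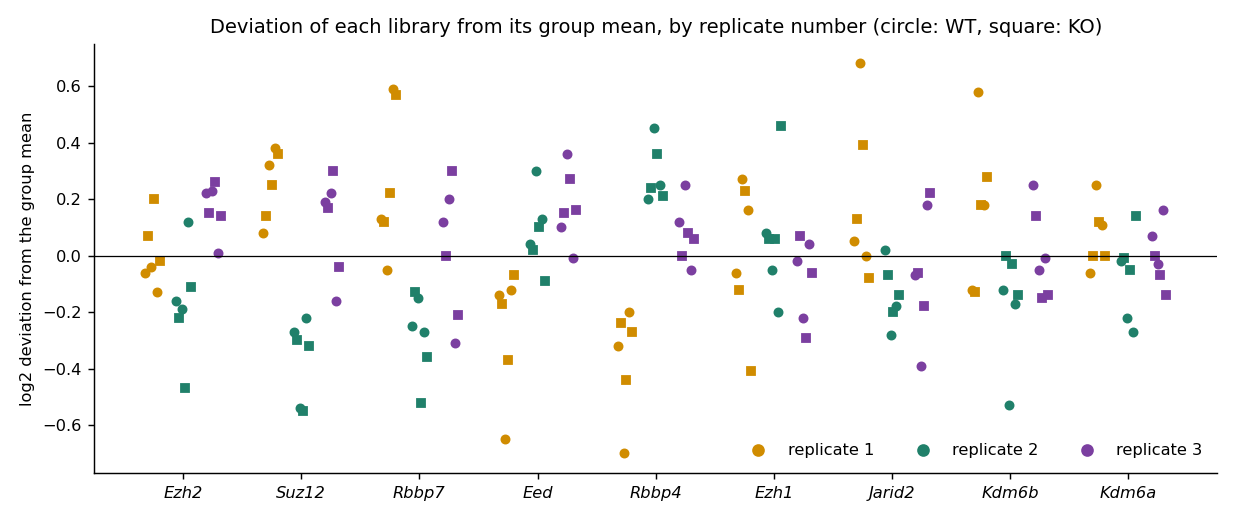
Deviation of each library from the mean of its group on the log2 scale (vertical axis), for each gene and colored by replicate number, with circles for WT and squares for KO. The 6 libraries of replicate 1 lie below 0 for *Rbbp4* and *Eed* and above 0 for *Suz12*, and the 6 of replicate 2 lie above 0 for *Rbbp4* and below 0 for *Suz12* and *Rbbp7*.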

How the data were processed

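RNA-seq was performed on 18 libraries of polyadenylated RNA, 3 per group, grouped by the labels. According to the methods, the authors used cutadapt for trimming, NextGenMap for mapping of the single-end reads to GRCm38 transcripts, RSEM for expected counts, tximport for the sum per gene and edgeR for TMM factors. The deposited values are CPM, the expected count plus 0.5 relative to the TMM-scaled library total. Expected counts were recovered from the smallest value of each library (26437823 to 41619016 per library, median 32939620). Of recovered counts under 20, 36% to 49.1% were whole (tolerance 0.01), so that no test for whole counts was used. A count of 3 equals 0.0651 to 0.119 CPM, a limit for counting error alone.

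Deposited values were taken to log2 and fitted by limma 3.58.1 in R 4.3.3 (lmFit, eBayes with a variance trend) over all 18 libraries and the 17672 genes that had, in at least 1 group, over 5 expected counts in each of the 3 libraries, with 1 factor of 6 groups and Benjamini-Hochberg adjustment. The study blocked on a sequencing lane, which the labels do not give. The deviations from the group means of libraries with the same number correlated over 0.1 in every pair for KO D2/Prol (lowest 0.198), KO D2/D0 (0.151), both D0/Prol and all 3 KO/WT comparisons, where the numbers were taken as pairing, but not for WT D2/Prol (lowest 0.0393) and WT D2/D0 (0.01). Alternatives were voom weights without and with a random replicate block, library totals alone, median-of-ratios scaling, no filter on low counts, a pseudocount of 1 CPM, a fixed replicate block, only the groups compared, the criteria of the study, and each library left out in turn. Leaving out a replicate number in all groups was added after seeing the data.

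The members, gene lists and tests were chosen with earlier results of these data known. Genes named besides the members are those with up to 3 of the largest rises and falls in WT D2/Prol among the genes called in each list, and the 5 most correlated with *Ezh2*, *Ezh1* and *Kdm6b*. Gene positions and exon lengths are from GENCODE M21 (GRCm38), and promoter windows from RefSeq, which held 8 of the 9 members. Plots were made in Python 3.11.15 (matplotlib 3.10.9).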

Additional observations from a re-analysis of the deposited data

How the results depend on the processing

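Over 36 member values of the D2 comparisons, no alternative turned a direction, and *Ezh2* was called in all of them. The counts of members called moved most with the libraries included. With each library left out in turn, the number called was 3 to 5 in WT D2/Prol, 3 to 5 in KO D2/Prol, 2 to 6 in WT D2/D0 and 3 to 5 in KO D2/D0, against 5 in each. With only the groups compared in the fit, and so fewer libraries behind the spread, 1 member was called in WT D2/D0 and 3 in KO D2/D0. Without all libraries of replicate 1, 2 or 3, a choice made after seeing the data, the number was 6, 3 and 1 in WT D2/Prol, 6, 3 and 2 in KO D2/Prol, 7, 2 and 1 in WT D2/D0, and 7, 2 and 1 in KO D2/D0, and the member left without replicate 3 in WT was *Ezh2*.

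For WT D2/Prol and WT D2/D0 the criterion for pairing (r over 0.1 for every number) was not met, because of replicate 3 (0.0393 and 0.01). Replicates 1 and 2 were at 0.404 and 0.269 in WT D2/Prol, and at 0.454 and 0.47 in WT D2/D0. In these comparisons 3 of 6 and 4 of 6 libraries correlated best with their own number. The same held for 3 of 6 in KO/WT D2, which met the criterion. With the replicate block, 7 members were called in WT D2/Prol and in WT D2/D0, since *Jarid2* (limma, adjusted p = 0.0334 and 0.0168) and *Kdm6b* (0.0208 and 0.0321) passed. The block called 47.7% and 43.2% of all genes. In WT D2/Prol 9 of 29 Hox genes passed as higher and 8 of 21 PRC1 genes as lower. For KO the block changed no other call of a member than that of *Rbbp4*, and none changed in D0/Prol or between the genotypes. Scaling by library totals alone shifted the median of all genes by 0.162 in WT D2/Prol, 0.131 in KO D2/Prol, 0.128 in WT D2/D0 and 0.11 in KO D2/D0, and *Kdm6b* was then called in WT D2/Prol (0.74, adjusted p = 0.0163) and WT D2/D0 (0.67, 0.0323), and *Jarid2* in WT D2/D0 (0.78, 0.0415). All 0 counts in the other comparisons stayed at 0.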

Other observations

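The Hox genes differed by cluster, a grouping chosen after their values were seen and given without a test. From Prol to D2 in WT, the 8 genes of the HoxB cluster that were tested had log2 fold changes of 0.44 to 1.64 (median 1.10). Those of 7 HoxC genes ranged from -1.36 to 1.78 (median 1.10), and those of 11 HoxA genes from -0.42 to 0.45 (median 0.01). The 3 HoxD genes ranged from 0.03 to 1.45 (median 0.71). Only 2 HoxB genes and none of the other clusters were called in WT. In KO the medians of HoxB, HoxC, HoxA and HoxD were 1.29, 1.07, -0.20 and 0.34. The HoxB genes reached at most 24.5 CPM in a group mean and the HoxA genes 84.9 CPM. The HoxC value of -1.36 was that of *Hoxc13*, whose group means ranged from 0.0741 to 0.266 CPM, near the level of 3 counts.

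Averaged over the 3 states, KO minus WT was positive for 8 of 8 HoxB genes (0.35 to 0.66), 7 of 7 HoxC genes (0.21 to 0.93) and 3 of 3 HoxD genes (0.23 to 0.80), and for 4 of 11 HoxA genes (-0.34 to 0.17). The values 0.21, 0.93 and 0.80 belong to *Hoxc13*, *Hoxc10* and *Hoxd9*. Their group means reached at most 0.266, 0.971 and 0.807 CPM, so that these differences rest on low counts. Other genes spread widely, as *Hoxb9* at 15.5 ± 17.3 CPM in WT Prol (SD, n = 3). In total 22 of 29 Hox genes had a positive difference, against 49.1% of all genes. The median over the 29 Hox genes was 0.39, against 0.00 over all genes. None passed the adjusted test (limma, lowest adjusted p = 1), and 5 of 29 had an unadjusted p under 0.05, where 2.3% of all genes did. Of these 5, 1 was the HoxA gene *Hoxa11*, which was lower in KO (-0.34, standard error 0.15). Neighbouring Hox genes lie close together and are not independent of each other.

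*Epop* was at 6.63 ± 0.754 CPM in WT D2 and 4.02 ± 0.926 CPM in KO D2 (SD, n = 3), a log2 fold change of -0.74 that did not pass the adjusted test (limma, adjusted p = 1) and was chosen after its values were seen.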
